A study of Arabidopsis thaliana with 6 samples.

Results

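VIM1 (AT1G57820), VIM3 (AT5G39550) and SUVH5 (AT2G35160) are 3 Arabidopsis genes whose proteins keep DNA methylation in place, and each carried 1 differentially methylated region in the authors' table. They were chosen by that entry in the table, that is, by the same comparison of the mutant with the wild type whose levels are given here, so their differences are a description and carry no test. Their 3 regions are among 9213 in all, and the 3 genes among 7699 gene IDs. Whole-genome bisulfite sequencing, which reads methylated cytosine as C and unmethylated cytosine as T, was done on 6 libraries, 3 of Col-0, a wild-type accession, and 3 of the mutant rbp-ko1. By the series' title and design text, rbp-ko1 is also named KO27 and stands for loss of the RNA-binding protein RBP45D. Both genotypes were whole plants 26 days old, raised on soil in days of 16 h light and 8 h dark, and no heat treatment is named for them. The mutant is 1 line, the kind of lesion is not given, and methylation data cannot check it.

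Each level is, by its column name, the authors' mean methylation of a region in a genotype, deposited as a fraction and given here in percent. How libraries and cytosines were weighted is not given in the sources used here. Nor is it given whether levels were averaged with those of neighbouring cytosines. No value per library, read count or coverage stands in the table, so the depth is unknown and no level has an SD or an interval. Whether a difference exceeds the spread between plants therefore could not be tested. The table lists only regions that the authors' caller picked, and only those annotated to a gene.

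Cytosine methylation in plants is classed by the bases that follow: CG, CHG and CHH, with H standing for any base but G. CG methylation is copied after replication by the methyltransferase MET1, which needs VIM proteins to bind the half-methylated DNA. VIM1 and VIM3 belong to this family, whose members are also called ORTHRUS proteins and can stand in for each other. SUVH5 is a histone methyltransferase that marks histone H3 on silent chromatin, a mark that the chromomethylases CMT3 and CMT2 read to maintain CHG and CHH methylation. CHH methylation is otherwise laid down anew by RNA-directed DNA methylation, in which small RNAs guide a methyltransferase to matching DNA.

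At VIM1, CHH methylation was higher in the mutant. The region covered 117 bp on chromosome 1 (21418557 to 21418673, TAIR10) and held 25 CHH cytosines. Its level was 22.0% in Col-0 and 33.2% in rbp-ko1, a difference of 11.2 percentage points and a ratio of 1.51. The authors annotated the region to the promoter of VIM1, under the name ORTH2, and to the promoter of the neighbouring gene AT1G57830, a TIR-domain family gene. It therefore cannot be assigned to VIM1 alone. Of all CHH regions, 30.3% had 2 or more annotated genes.

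At VIM3, the other gene of the family with a region, CHH methylation was lower in the mutant. The region covered 283 bp on chromosome 5 (15841168 to 15841450) with 81 CHH cytosines, and it was annotated only to the promoter of VIM3, under the name ORTH1. Its level was 19.2% in Col-0 and 7.68% in rbp-ko1, a difference of -11.5 points. The mutant thus kept a share of 0.400 of the wild-type level.

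The regions at the 2 VIM promoters had close levels in the wild type and lay apart in the mutant. Their Col-0 levels lay 2.82 points from each other, with VIM1 the higher, and their rbp-ko1 levels lay 25.5 points apart. The wider gap follows from the 2 opposite differences and adds nothing to them. In percentage points the differences were nearly equal in size and opposite in sign, and their sum was -0.33. As log2 ratios of rbp-ko1 to Col-0 they were not, at 0.59 for VIM1 and -1.32 for VIM3. On that scale a fall weighs more than an equal rise in points from a like level, so nothing is read from this. The direction at VIM3 was that of nearly all CHH regions, as 97.4% of the 5834 were lower in rbp-ko1. The direction at VIM1 was the less common one, with 2.64% of CHH regions higher, or 154, and 4.46% among those that differed by at least 10 points, as VIM1 did. Because the genes were chosen on this contrast, nothing is read from these shares.

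SUVH5 differed in another context and another part of the gene. Its region covered 58 bp of an exon on chromosome 2 (14825863 to 14825920) and held 5 CG cytosines, where the smallest region of the table had 4. The CG level was 3.73% in Col-0 and 23.1% in rbp-ko1, a difference of 19.4 points and a ratio of 6.20. The same region was annotated to the promoter of the next gene, AT2G35170, for which the table gives no function, and 41.1% of CG regions likewise had 2 or more genes. Of 2909 CG regions, 25.3% were higher in rbp-ko1.

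**Figure D1:**
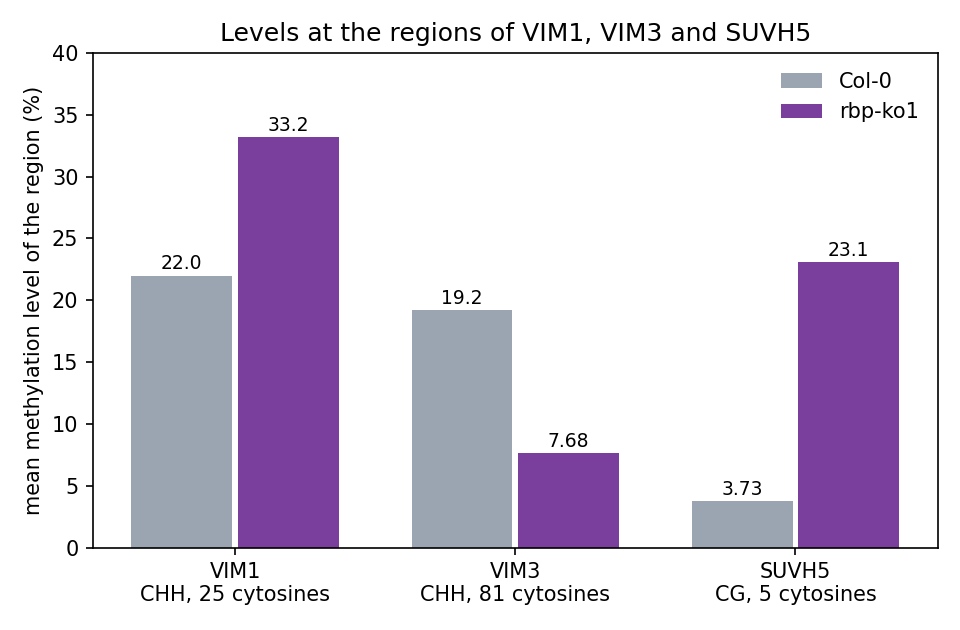
Bars give the authors' mean methylation level in percent in Col-0 (grey) and rbp-ko1 (purple). The regions are those of VIM1 and VIM3 (CHH) and SUVH5 (CG). Each bar is 1 deposited value for a genotype of 3 libraries, with no error available. The VIM bars stand near each other in Col-0 at 22.0 and 19.2% and diverge to 33.2 and 7.68%, while SUVH5 goes from 3.73 to 23.1%.

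Among the 154 higher CHH regions, the VIM1 region ranked high by its starting level and low by its ratio. The Col-0 level is the denominator of the ratio, so these 2 ranks are not separate traits. They are given as a description only. Its Col-0 level was the 8th highest, against a median of 3.36%, and its rbp-ko1 level the 9th highest, against a median of 11.4%. Its difference ranked 24th, above the median of 6.61 points. Its ratio of 1.51 ranked 146th, where the median region had 3.08. With 25 cytosines it was below the median of 34, and its area statistic, a signed score the authors give each region, was 111 against a median of 167.

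The VIM3 region lay in the upper part of the 5680 lower CHH regions by level and near the middle by proportion. Its Col-0 level exceeded that of 89.1% of them, and its difference was larger in size than that of 93.8%. A fall cannot exceed the starting level, so these ranks are not separate traits. The median lower region went from 8.99% to 3.14% and kept a share of 0.354, close to the 0.400 of VIM3, whose value lay inside the quartiles of 0.273 and 0.428. It was also ordinary in size, with 81 cytosines against a median of 68 and 283 bp against 240 bp. Its area statistic was -599, larger in size than in 68.3% of lower regions.

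The SUVH5 region was small and started low. Its Col-0 level ranked 620th among 735 higher CG regions, whose median was 31.5%, and its rbp-ko1 level ranked 630th against a median of 63.0%. The difference of 19.4 points was below the median of 22.99 and above the lower quartile of 15.3. Its ratio ranked 104th, with a median of 1.95. The area statistic of 24.0 was smaller in size than in nearly all of these regions, since only 8.30% lay below it and the median was 46.0. Regions of 5 CG cytosines were not rare: there were 235, of which 63 (26.8%) were higher, by 6.44 to 42.5 points with a median of 23.6.

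Each region was also set beside all others of like wild-type level. Within 5 points of the Col-0 level of VIM1 lay 620 CHH regions, of which 8 were higher and 612 lower, with a median difference of -10.2 points. Within 5 points of VIM3 lay 1015 CHH regions, 14 higher and 1001 lower, with a median of -9.35 points beside the -11.5 of VIM3. Within 5 points of SUVH5, a band cut off at 0%, lay 398 CG regions, 175 higher and 223 lower. Their median difference was -2.67 points beside the 19.4 of SUVH5. Below a Col-0 level of 5%, where SUVH5 belongs, 134 of 190 CG regions (70.5%) were higher, by a median of 15.3 points. A region that starts there can fall by less than 5 points but can rise by far more. Nothing is therefore read from this share. These counts include the 3 regions themselves. By annotated feature, 133 of 4762 promoter CHH regions (2.79%) and 603 of 2154 exonic CG regions (28.0%) were higher.

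**Figure D2:**
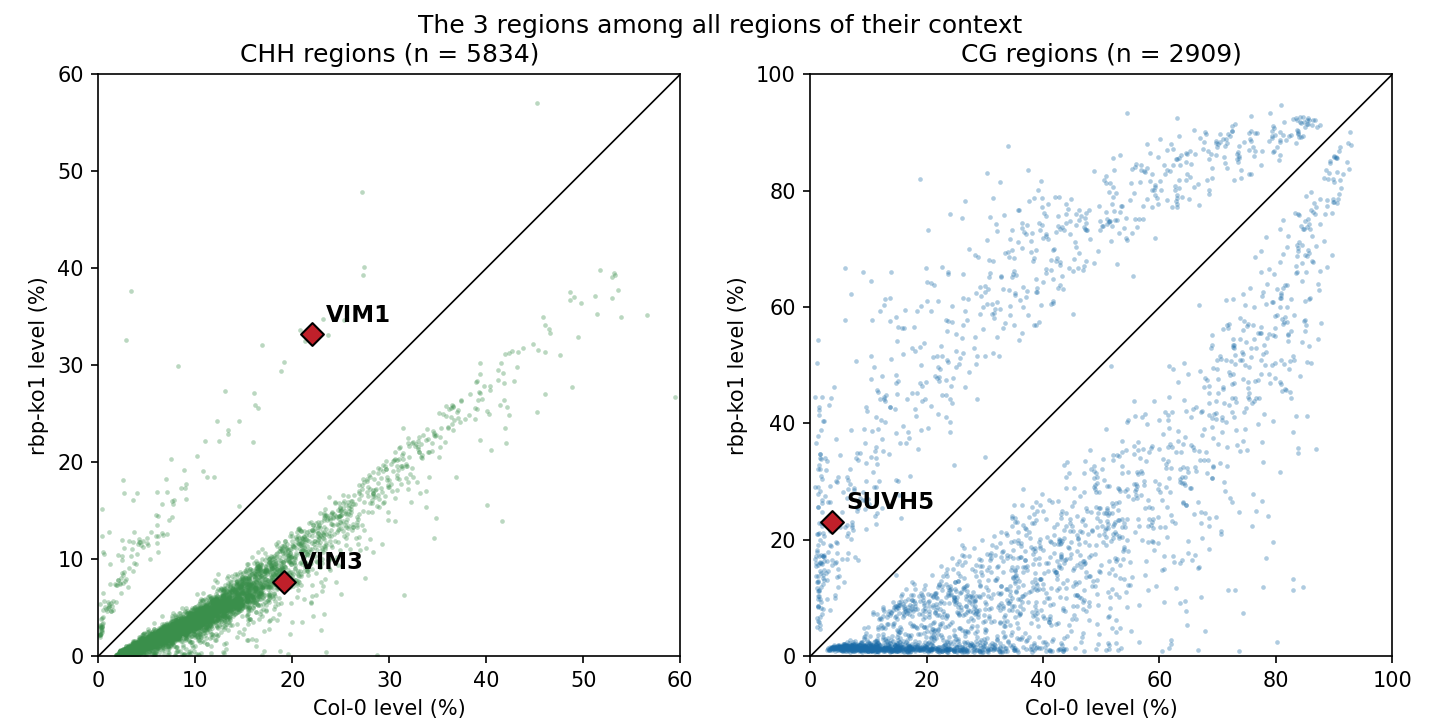
Each point is 1 region, with its mean level in percent in Col-0 on the horizontal axis and in rbp-ko1 on the vertical axis, for 5834 CHH regions (left) and 2909 CG regions (right, on a wider scale); the line marks equal levels and red diamonds mark VIM1, VIM3 and SUVH5. VIM1 lies above the line among the few CHH regions of that side, VIM3 lies in the dense band below it, and SUVH5 lies at the low end of the higher CG regions.

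The regions whose pair of levels came nearest to each gene's were sought among those of the same context, direction and feature. Nearest to VIM1 among 132 other higher promoter CHH regions was that of AT3G19250, with 21.3% in Col-0 and 32.5% in rbp-ko1 over 41 cytosines. It was followed by the promoter of AT2G14080, a disease resistance gene of the TIR-NBS-LRR class, with 20.8% and 33.6% over 7 cytosines, and that of AtGH9B6 (AT1G23210), an endoglucanase gene, with 23.7% and 33.2% over 26. The third of these lay 1.67 points from VIM1, taken over both levels, and the others less. The pool for VIM3 was far larger, 4628 lower promoter CHH regions, and its nearest were at AT3G09775 (19.2% and 7.67%), AT3G05745 (19.1% and 7.75%) and HIRD11 (AT1G54410, 19.3% and 7.75%), the last over 6400 bp and 1791 cytosines. For SUVH5, regions among the nearest of 602 higher exonic CG regions were at AT2G28460, with 4.99% and 23.2% over 11 cytosines, and AT3G03945, with 3.44% and 21.6% over 17. Several of these regions were also annotated to other parts of the same gene or, as at HIRD11, to another gene. The likeness is over 2 genotype means and says nothing of shared function.

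No other listed region lay within 10 kb of the VIM1 or the VIM3 region, in any context, and 1 lay within 10 kb of SUVH5. Regions not annotated to a gene are not listed, so these counts leave them out. Across 8919 nuclear regions the median number of others within 10 kb was 3, and 15.4% had none. Among the 153 nuclear CHH regions that were higher, 40 (26.1%) had none, and among 5638 lower ones 495 (8.78%) had none. For the 728 nuclear CG regions that were higher the median was 1 other region, and 60.6% had 1 or fewer, as SUVH5 did. Each of the 3 genes had only its 1 region, as did AT1G57830 and AT2G35170. Of 6051 protein-coding genes with a region, 65.8% had only 1. None of the 3 regions overlapped a region of another context. Such overlaps were present at 20 of the 154 higher and 469 of the 5680 lower CHH regions (13.0% and 8.26%), and at 40 of the 735 higher CG regions (5.44%).

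The nearest region to that of VIM1 was 20.5 kb away, in an exon of AT1G57770, with CG levels of 9.84% in the wild type and 1.19% in the mutant. The nearest CHH region, 25.9 kb away at the promoter of AT1G57765, was lower in the mutant too, with 39.4% and 30.2%. The nearest CHH region that was higher was 348 kb away, at the promoter of AT1G58643. On chromosome 1 as a whole, 31 of 1244 CHH regions were higher.

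Around VIM3, every region listed within 20 kb was lower in the mutant. Between 10 and 20 kb away lay 7 regions, 4 of them CHH, 2 CG and 1 CHG. Lower was also the usual direction, as 34 of 1131 CHH regions on chromosome 5 were higher. On one side, 2 CHH regions at the promoters of AT5G39530 and AT5G39535, a transfer RNA precursor gene, went from 12.1% to 3.23% and from 12.3% to 5.48%. The CG regions on that side went from 56.0% to 27.7% and from 75.2% to 44.5%. The first of these CG regions overlaps the first of the CHH regions. On the other side, 14.3 to 15.3 kb away, lay regions at the promoter of AT5G39600, a gene the table describes as a ribosomal protein. CHH levels there went from 15.4% to 4.09% and from 10.9% to 4.49%, and CHG from 53.2% to 29.4%. The CHG region lies inside the second of these CHH regions.

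Near SUVH5, short CG regions were higher in the mutant. The region 9.53 kb away, in an exon of AT2G35140, a DCD-domain gene, had 18.0% in the wild type and 52.4% in the mutant. Another, 19.5 kb away in an intron of GDH2 (AT2G35120), a subunit of the glycine cleavage system, went from 20.1% to 61.0%. Like that of SUVH5, both held 5 cytosines. Between them, 14.2 kb away, a CHH region at the promoters of AT2G35130 and AT2G35140 was lower, with 10.5% and 2.70%. On chromosome 2, 147 of 593 CG regions were higher.

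**Figure D3:**
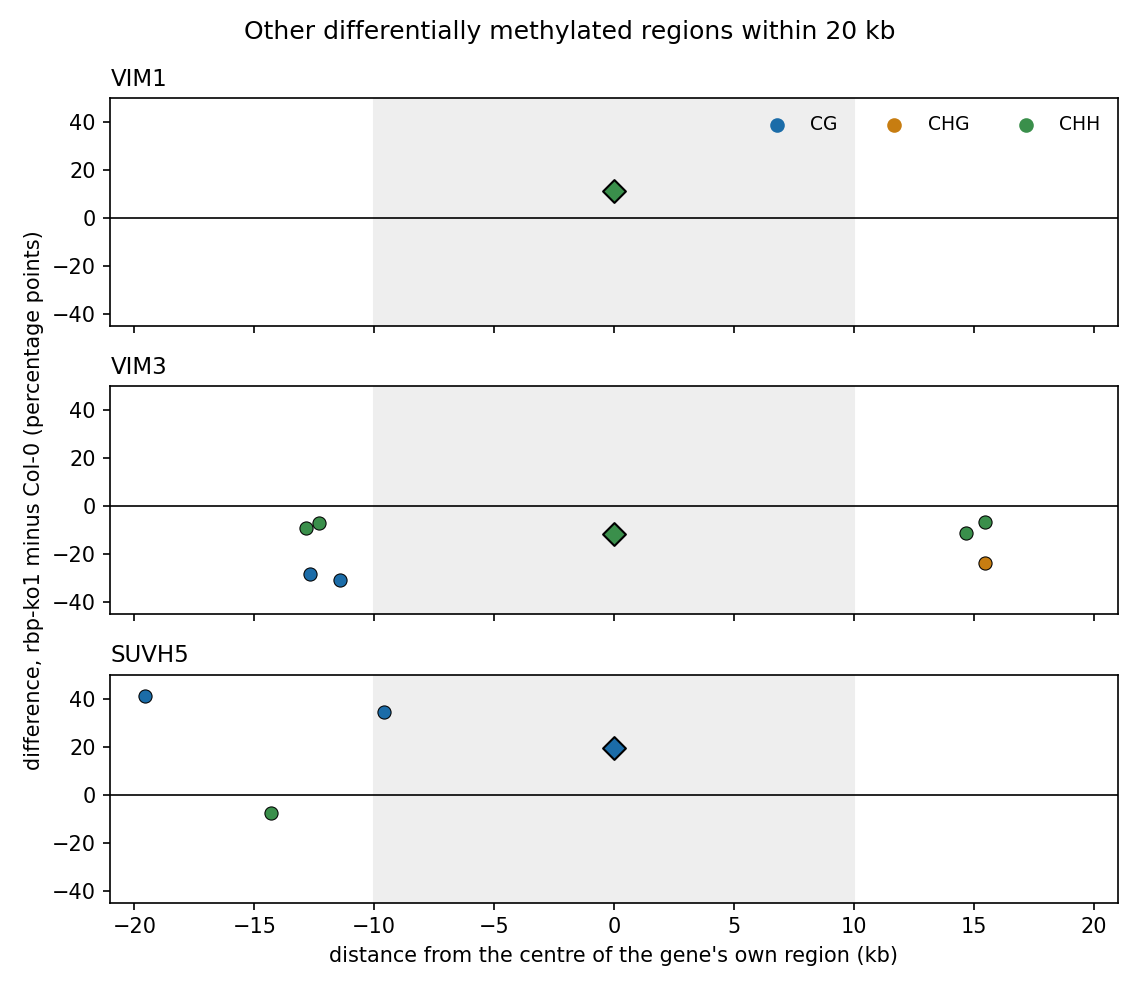
Points give the difference in methylation, rbp-ko1 minus Col-0 in percentage points, against the distance in kb from the centre of each gene's own region (diamond), with contexts in colour and the 10 kb window shaded. VIM1 has no other listed region, the 7 regions around VIM3 all lie below 0, and 2 CG regions near SUVH5 lie above 0 with 1 CHH region below.

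Among 30 listed genes of DNA methylation upkeep and removal, family relatives included, 8 had a region (26.7%), against 22.0% of 27444 nuclear protein-coding genes. A role in upkeep or removal is not shown here for each gene of the list. Of the 30, 3 had a higher region (background 4.09%) and 6 a lower one (background 19.1%), with MET2B in both counts. Together they held 19 regions, 16 lower and 3 higher, with a median difference of -5.78 points beside -6.49 over all 9213 regions. Both medians mix contexts, and over all regions CG had -12.8 and CHH -5.71 points. Of the 19, 14 lay at MET2A, MET2B and MET3, and some of these overlap, so the median mostly describes these genes. The list includes VIM1, VIM3 and SUVH5 and was drawn up with earlier results of these data known, so these counts are no independent evidence.

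In the VIM family, 2 of 6 genes had a region (33.3%), against 22.0% of nuclear protein-coding genes. VIM2, VIM4, VIM5 and VIM6 had none. VIM5 is the protein-coding neighbour of VIM1 on the side away from AT1G57830 in the RefSeq gene order. These genes are close relatives, and how the authors treated reads that match more than 1 place is not given in the sources used here. In the SUVH family, 3 of 8 genes on the list had a region (37.5%, beside the same background), and SUVH5 was the one that was higher. SUVH2 and SUVH9, which act in RNA-directed DNA methylation, were left off the list and are not counted. At SUVH8 (AT2G24740), a promoter region stood at 4.69% CHH methylation in the wild type and 1.11% in the mutant over 155 cytosines. The same region was annotated to an exon, an intron and the transcription end site of another gene. It therefore cannot be assigned to SUVH8 alone. The promoter of SUVH10 (AT2G05900), annotated as a putative inactive relative, stood at 8.71% and 2.37% in CG over 7. SUVH4 and SUVH6, which act beside SUVH5 in marking histones, had no region.

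Of the 7 methyltransferase genes on the list, 3 had a region (42.9%), against 22.0% of nuclear protein-coding genes. MET1, CMT2, CMT3 and CMT1 had none. MET2A (AT4G14140), MET2B (AT4G08990) and MET3 (AT4G13610), relatives of MET1, carried 14 of the 19 regions, all inside the genes or reaching a transcription end site. At MET2A, 5 CHH regions over 3273 bp in all had Col-0 levels of 6.43 to 10.4% and rbp-ko1 levels of 1.20 to 3.33%, and a CHG region went from 43.4% to 23.4%. At MET2B, 4 CHH regions had 7.58 to 10.1% and 2.42 to 3.88%, and a CHG region went from 42.7% to 32.8%. An exonic CG region of MET2B was higher instead, with 5.10% and 22.2% over 14 cytosines, levels near those of SUVH5. MET3 was lower in CHH (2.66% and 0.305%) and CHG (21.7% and 7.87%). MET2A and MET2B are related genes, and whether reads of one were placed on the other was not tested. None of the 4 chromatin genes on the list (DDM1, HDA6, MOM1 and IBM1) had a region. The same held for the 5 removal genes (ROS1, DME, DML2, DML3 and IDM1). Beside a background of 22.0%, groups this small are not read as hit or spared. A gene without an entry is not shown to have had equal methylation.

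**Figure D4:**
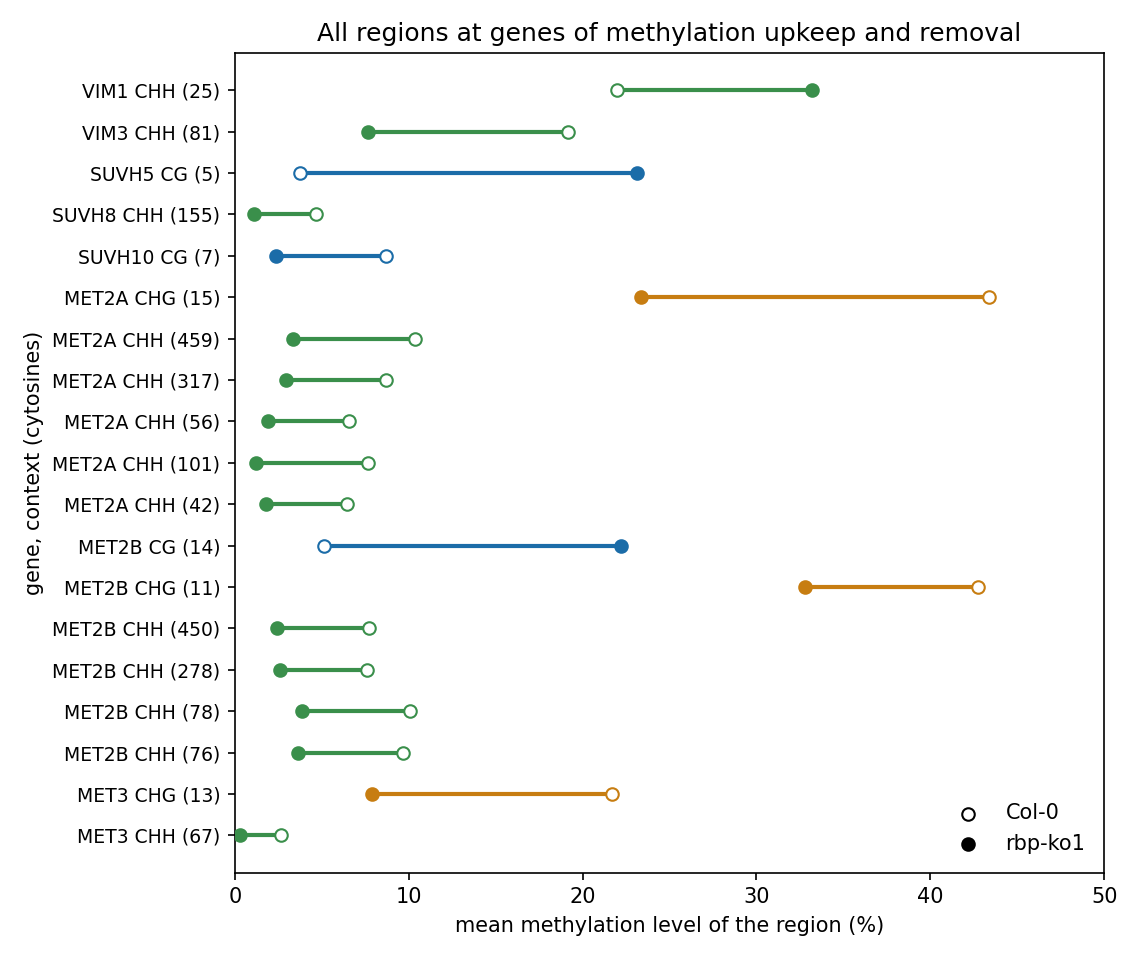
Each line joins the mean methylation level in percent in Col-0 (open circle) and rbp-ko1 (filled circle) of 1 of the 19 regions at list genes, coloured by context (green CHH, blue CG, orange CHG), with the number of cytosines in brackets. Lines run to the right at VIM1, SUVH5 and the CG region of MET2B, and to the left at the other 16.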

How the data were processed

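Whole-genome bisulfite sequencing was run on 3 Col-0 and 3 rbp-ko1 libraries. Per the submitters' processing notes, the tools were Trimmomatic, FastQC, Bismark and MethylDackel, with no version, and the build TAIR10. Not given in the sources used here are the region caller, its thresholds, the conversion rate and how far a promoter reaches. The deposited table gave 18828 entries, 1 per region, gene and feature. The authors deposited methylation levels as 1 fraction per genotype, a mean by its header, and the area statistic as a score. The number of cytosines and the region length are also per the file headers.

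Entries were merged into 9213 regions by place and context (Python 3.11.15, pandas 2.3.3). Gaps count the bases between regions. Functions were tested on simulated data. Coordinates are those of the table. RefSeq names and gene order (assembly TAIR10.1) matched 6998 of 7699 gene IDs and all 30 list genes. No sequences are shown, as no genome or sequence table was used here. Tests per library, planned for values per library, were not run. Named genes were the 3 genes, list genes with a region, genes at regions within 10 kb and, per gene, the 3 regions nearest in both levels, of which 1 at SUVH5 is not reported here. Genes 10 to 26 kb away and at 348 kb were chosen after their values were seen. Members and lists were chosen with earlier results of these data known. Whether the libraries stem from separate plants or pools is not in the labels.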

Additional observations from a re-analysis of the deposited data

How the results depend on the processing

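As a log2 ratio of rbp-ko1 to Col-0 the differences kept their directions, at 0.59 for VIM1, -1.32 for VIM3 and 2.63 for SUVH5. VIM3 differed more than VIM1 on this scale, where a fall weighs more than an equal rise in points from a like level. At a minimum of 10 cytosines SUVH5 dropped out, and at 20 points none of the 3 regions was left. The number of neighbouring regions was 7 at VIM3 and 3 at SUVH5 within 20 kb, and 0 at SUVH5 within 5 kb or with at least 10 cytosines, while VIM1 had 0 in each of these. With gene bodies only, 4 of the list genes had a region, against a background of 11.1%, and VIM1 and VIM3 were not among them. With at least 10 cytosines 6 had one, against a background of 17.7%, and with at least 10 points 6, against 12.2%. The share of CG regions that were higher was 21.9% with at least 10 cytosines, 28.2% at 10 points or more and 27.6% without the mitochondrial genome and its copy on chromosome 2 (3.2 to 3.6 Mb). In CHH it was 4.46% at 10 points or more, beside 2.64% of all CHH regions. In CHG it was 15.4% without these places, beside 10.9% of all CHG regions. No paired analysis was possible because the table holds 1 mean per genotype and no value per library, and for the same reason no library could be left out. The depth behind the 3 regions is unknown.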
